A study of Rattus norvegicus with 4 samples.

Results

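Id1, Id2, Id3, Hes1 and Tcf12 encode regulators of the helix-loop-helix (HLH) class, and their transcripts were measured in the testis of male Sprague Dawley rats after injection of antibody to FSH (follicle-stimulating hormone) or of control IgG. The 5 genes were chosen by earlier values of this same comparison, so their differences are given as a description, with no test. Each probe set that the platform annotation pairs with exactly 1 of these symbols was taken, which gave 9 probe sets for the 5 genes out of 8799 probe sets in the table, and 4737 genes had a single-symbol probe set. All 9 were bright enough to be among the 5252 probe sets tested.

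The FSH antibody group received a sheep antibody against rat FSH for 4 days (2 arrays), and the control IgG group received a control sheep immunoglobulin for 4 days (2 arrays). The treatment protocol starts the injections on postnatal day 18 and ends at collection on day 22, whereas the series design starts them on day 14, and every source name gives day 18. For antibody replicate 2 the title reads as postnatal day 4 and names no treatment, while its source name and its protocol put it in the antibody group. Each RNA sample is described as a pool of about 20 organs, called ovaries in that text, while every source name gives the testis of 1 animal, so the number of animals behind an array is not settled and a p-value here measures the spread between RNA samples. Each sample was hybridised to 1 Affymetrix array of the rat U34 set.

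HLH proteins pair through their helix-loop-helix domain, and those with a basic region next to it bind E-box DNA as pairs. Tcf12, also called HEB, is an E protein, a widely expressed partner of tissue-restricted basic HLH factors. Id proteins lack the basic region, so a pair that contains one cannot bind DNA, and they are best known as targets of BMP and Smad signalling that hold cells in an undifferentiated state. Hes1 is a basic HLH repressor, the classic target of Notch signalling, and it represses its own gene. In the testis the Sertoli cell, which nurses the germ cells, is the cell that carries the FSH receptor.

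The start-site regions of Id1, Id3 and Hes1 are shown because both probe sets of Id1 and of Id3 had higher means after the antibody while those of Hes1 disagreed. They come from RefSeq on rat assembly GRCr8, 250 bases before and 50 bases after the start that its promoter table uses, in the direction of the gene. For Id1, Id3 and Tcf12 that start lies inside the gene span given with the values, and the table names no transcript. Capitals mark matches, on either strand, to TGACGTCA (the cAMP response element), CACGTG (an E-box), CACNAG (the N-box that Hes proteins bind), GGCGCC (found in BMP-responsive Id promoters), GTGGGAA (the Rbpj site of Notch targets), CCAAT and TATAAA. The last pair of motifs was added after the sequences were seen.
Id1, plus strand of chr3:161671314-161671613: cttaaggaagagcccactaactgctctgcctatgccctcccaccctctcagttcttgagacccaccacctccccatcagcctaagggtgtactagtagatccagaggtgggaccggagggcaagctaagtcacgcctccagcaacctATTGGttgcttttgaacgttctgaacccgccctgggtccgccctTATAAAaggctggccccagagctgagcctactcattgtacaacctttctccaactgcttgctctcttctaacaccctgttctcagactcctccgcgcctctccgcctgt
Id3, plus strand of chr5:153656041-153656340: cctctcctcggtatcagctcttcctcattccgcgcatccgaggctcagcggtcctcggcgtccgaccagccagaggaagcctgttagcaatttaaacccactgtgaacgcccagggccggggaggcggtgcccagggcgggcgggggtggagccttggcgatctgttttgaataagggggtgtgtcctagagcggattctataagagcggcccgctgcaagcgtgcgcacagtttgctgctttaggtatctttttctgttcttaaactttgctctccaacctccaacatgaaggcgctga
Hes1, minus strand of chr11:84212996-84213295: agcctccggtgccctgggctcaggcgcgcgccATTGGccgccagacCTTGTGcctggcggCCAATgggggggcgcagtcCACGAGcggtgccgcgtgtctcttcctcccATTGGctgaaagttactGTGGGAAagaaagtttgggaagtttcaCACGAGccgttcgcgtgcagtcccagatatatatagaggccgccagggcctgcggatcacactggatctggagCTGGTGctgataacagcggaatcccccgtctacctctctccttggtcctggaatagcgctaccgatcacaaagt

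The Hes1 window held 4 matches to CACNAG and 1 to GTGGGAA, which begins at base 127 counted from 1 at the 5′ end. Among 33469 RefSeq windows of the same length, 43.1% held CACNAG and 6.29% held GTGGGAA. Hes1 also held 3 matches to CCAAT, a motif found in 37.5% of the windows. Id1 held 1 CCAAT match, 1 match to TATAAA (in 14.2% of windows) and no match to the other motifs. In Id3 none of the 7 motifs had a match. TGACGTCA (1.83% of windows), CACGTG (6.42%) and GGCGCC (11.0%) were in none of the 5 members' windows. The windows not printed here held 1 CACNAG match for Id2 (chr6:47470946-47471245) and 1 for Tcf12 (chr8:81679873-81680172), and Id2 held 3 CCAAT matches. A match describes letters in these windows and no binding was measured.

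Values below are linear intensities per probe set. A log2 difference is the antibody mean minus the control mean of log2(intensity + 16), with its standard error from the limma fit to all tested probe sets. The added constant understates the difference of dim probe sets. The median intensity of an array lay between 36.5 and 40.4, and the trimmed mean, leaving out 2% of probe sets at each end, was 125.2 on all 4. Probe sets cannot be set against each other in level, since each has its own response.

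Id3 (GRCr8 chr5:153656253-153657860) had the largest difference of the 5 genes. Probe set rc_AI171268_at had 225.7 and 398.1 on the antibody arrays, against 187.2 and 120.4 on the control arrays. Both antibody arrays were above both control arrays, and antibody replicate 2 was 1.76 times antibody replicate 1. The means were 311.9 ± 121.9 after the antibody and 153.8 ± 47.2 in controls (SD, n = 2 each), a ratio of 2.03 and a log2 difference of 0.93 ± 0.28. Without antibody replicate 2 the difference was 0.54, and without antibody replicate 1 it was 1.31.

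The second Id3 probe set, AF000942_at, had 78.5 and 96.2 on the antibody arrays, against 68.0 and 53.2 on the control arrays. The groups again did not overlap, and the order of the 4 arrays was the same as on the first probe set. The log2 difference was 0.43 ± 0.19, smaller than that of rc_AI171268_at. The probe sets come from different sequence records, and their agreement is in direction and array order, not in size.

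Id1 (chr3:161671525-161672691), which like Id3 is widely known as a direct BMP target, was also higher on average after the antibody. Probe set L23148_g_at had 164.2 and 217.1 on the antibody arrays, against 140.6 and 155.4 on the control arrays. The groups did not overlap, but antibody replicate 1 exceeded the higher control by little. The log2 difference was 0.32 ± 0.19, with 0.14 without antibody replicate 2 and 0.51 without antibody replicate 1.

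Probe set L23148_at of Id1 had 44.7 and 79.9 on the antibody arrays, against 46.9 and 41.5 on the control arrays. Here the groups overlapped, since antibody replicate 1 lay between the controls. The log2 difference of 0.34 ± 0.24 was 0.01 without antibody replicate 2, so it rests on that array, and 0.67 without antibody replicate 1. Both share 1 sequence record as their source and are not independent.

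Id2 (chr6:47469162-47470995), the family member that also binds the retinoblastoma protein, showed no such separation. Its only probe set, rc_AI137583_at, had 253.9 and 338.3 on the antibody arrays, against 335.4 and 327.2 on the control arrays. The antibody arrays lay on either side of the controls. The log2 difference was −0.17 ± 0.19, and it turned to 0.03 without antibody replicate 1 and was −0.36 without antibody replicate 2.

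**Figure D1:**
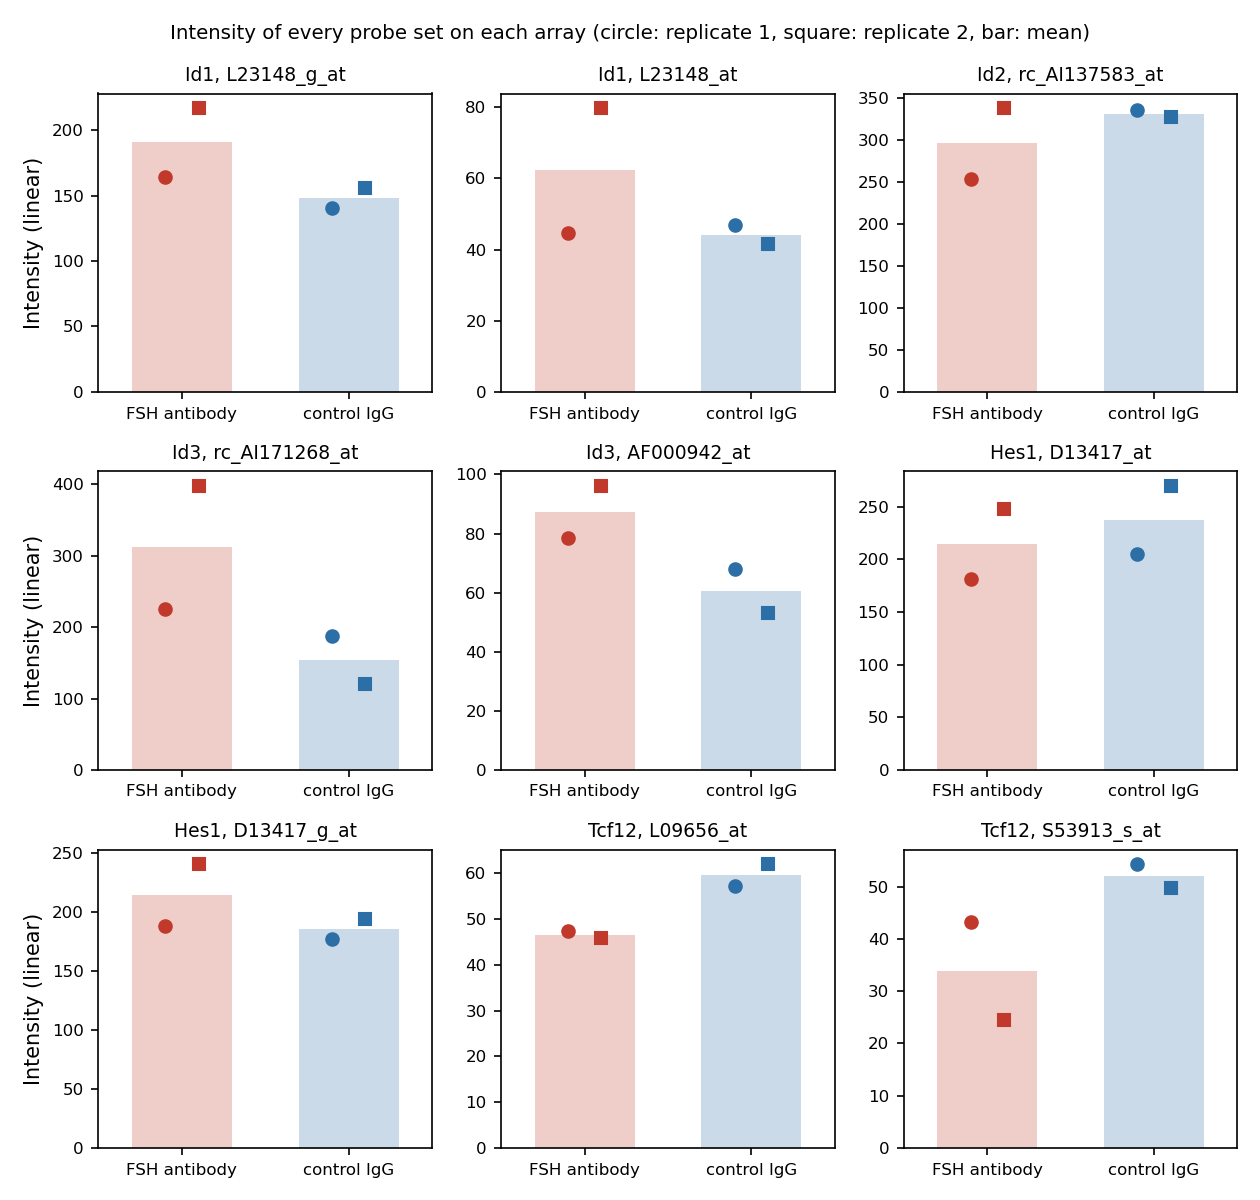
Linear intensity (vertical axis, from 0) of the 9 probe sets in FSH antibody testes (left in each panel) and control IgG testes (right). Circles are replicate 1, squares replicate 2 and bars the mean of 2 arrays, and both Id3 panels have the 2 antibody arrays above the 2 control arrays while the Id2 and Hes1 panels overlap.

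The Hes1 (chr11:84210632-84213045) probe sets had opposite signs. D13417_at had 181.4 and 247.3 on the antibody arrays, against 205.2 and 269.8 on the control arrays, a log2 difference of −0.14 ± 0.21. D13417_g_at had 188.1 and 241.1 on the antibody arrays, against 177.2 and 194.1 on the control arrays, a difference of 0.19 ± 0.18. The groups overlapped on both probe sets, which share 1 source record. On D13417_at the direction turned without antibody replicate 1 (0.07) and without control replicate 2 (0.04). On D13417_g_at the difference was 0.02 when antibody replicate 2 was left out and 0.35 when antibody replicate 1 was. The mean of both probe sets gave 0.02, so no direction can be given for Hes1.

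Tcf12 (chr8:81371201-81682337), the E protein of the set, had lower values after the antibody. Probe set L09656_at had 47.4 and 45.8 on the antibody arrays, against 57.2 and 62.1 on the control arrays. The groups did not overlap, and the arrays of each group lay close together. The means were 46.6 ± 1.13 after the antibody and 59.6 ± 3.46 in controls (SD, n = 2 each), a ratio of 0.781 and a log2 difference of −0.27 ± 0.18.

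The other Tcf12 probe set, S53913_s_at, had 43.2 and 24.4 on the antibody arrays, against 54.4 and 49.8 on the control arrays. The groups did not overlap, and antibody replicate 2 was far below the other 3 arrays. The log2 difference was −0.48 ± 0.23, with −0.20 without antibody replicate 2 and −0.75 without antibody replicate 1.

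None of the 9 probe sets (0) passed an adjusted p of 0.05 in limma, where 0.267% of all tested probe sets did. At an unadjusted p under 0.05 there were 2, both of Id3, against 8.11% of all tested probe sets. In 5 of the 9 the groups did not overlap, against 37.4% of all tested probe sets. Of these 3 were higher (Id3 on both probe sets and Id1 on 1) and 2 lower (both of Tcf12), where 21.9% and 15.5% of all tested probe sets were separate in these directions. The median log2 difference was 0.19 over the 9 probe sets and 0.03 over all tested ones, of which the middle 50% lay between −0.13 and 0.18. Since the members were chosen on this contrast, nothing is read from these counts.

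**Figure D2:**
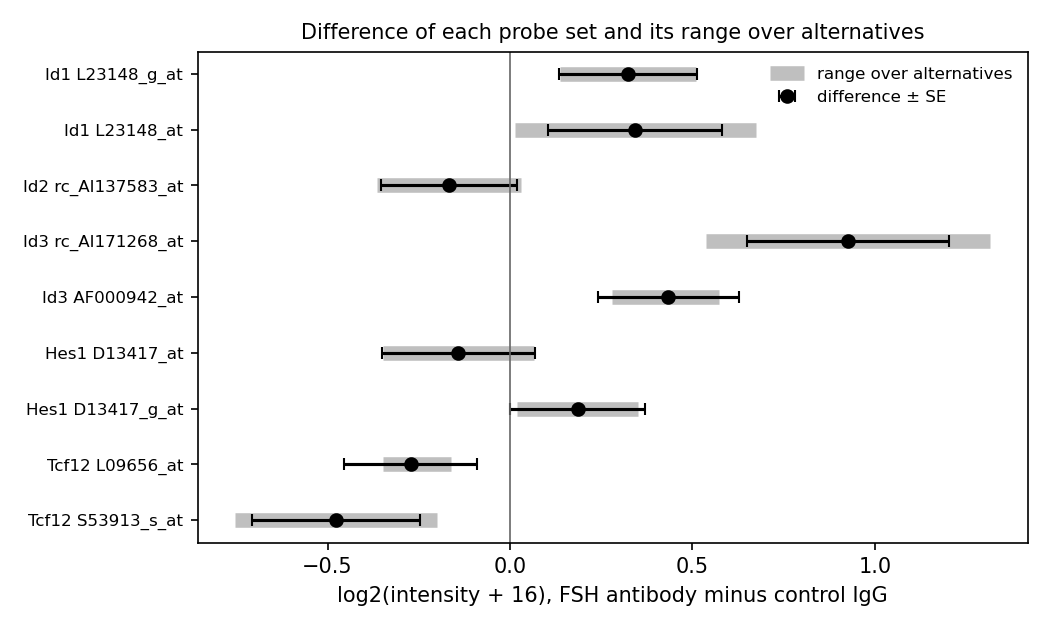
Log2 difference of each probe set, FSH antibody minus control IgG (horizontal axis, log2(intensity + 16)), as a point with its standard error, with a grey bar for the range over the alternative settings. The Id1 and Id3 bars lie above 0 and the Tcf12 bars below 0, while the Id2 bar and that of Hes1 D13417_at cross 0.

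The array with the extreme value was often the same one. Antibody replicate 2 was the highest of the 4 arrays on 6 of the 9 probe sets, among them the 5 Id probe sets, whereas 30.5% of all tested probe sets were highest on that array. It was the lowest array on both Tcf12 probe sets. Antibody replicate 1 was the highest on none (0). On rc_AI171268_at of Id3, antibody replicate 2 deviated by 0.85 from the mean of the 4 arrays and antibody replicate 1 by 0.07, on the log2 scale.

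**Figure D3:**
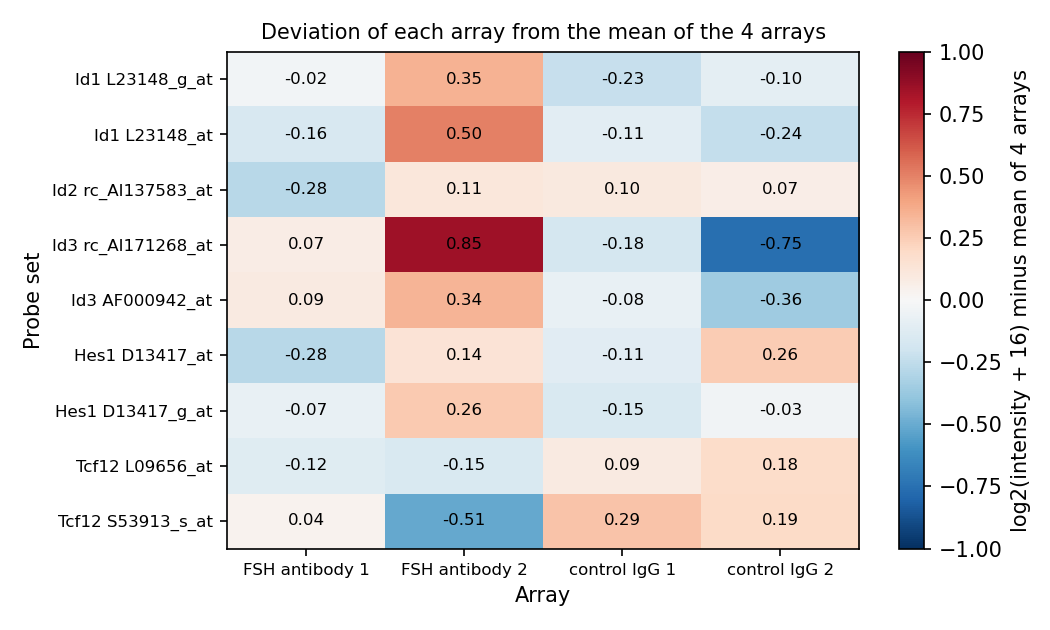
Deviation of each array (columns) from the mean of the 4 arrays for each probe set (rows), in log2(intensity + 16), with red for higher and blue for lower. Antibody replicate 2 is the reddest array in all 5 Id rows and the bluest in both Tcf12 rows.

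Markers of other cell types varied across the same arrays. Endothelial cells are a known site of Id1 and Id3 expression. Of 12 endothelial markers 7 were on the array and 4 were tested, each read on its brightest probe set. Nos3 had other tested probe sets, U02534_at at −0.03 and AF110508_at at 0.47. On the brightest probe set all 4 markers were higher on average after the antibody, with none called. Their median log2 difference was 0.25, against 0.03 for all tested probe sets. The difference was largest for Edn1 (endothelin 1), with 88.1 and 89.8 on the antibody arrays against 38.3 and 34 on the control arrays (1.01 ± 0.18, limma adjusted p = 0.0653). It was 0.40 ± 0.19 for Flt1, 0.10 ± 0.18 for Nos3 and 0.09 ± 0.21 for Pecam1. The summed intensity of the 7 was 304.1 and 366.0 on the antibody arrays, against 239.3 and 231.7 on the control arrays, so antibody replicate 2 was highest for this sum too. Without Edn1 the sum was 216 and 276.2 on the antibody arrays, against 201 and 197.7 on the control arrays. Of the 7 markers 5 were highest on antibody replicate 2, while Pecam1 was highest on antibody replicate 1 and Icam2 on control replicate 1. The 5 include the defining markers Vwf and Kdr, both below the filter. Kdr had 11.3 and 33.5 on the antibody arrays, against 15.8 and 17.3 on the control arrays. For Vwf the values were 9.7 and 24.3, against 10.5 and 10.7. Both were thus lowest on antibody replicate 1, where Id3 was above both control arrays. No endothelial marker was at 0 on any array. In bulk tissue, more cells of a type and more RNA per cell cannot be told apart, and the part of these markers in the Id values was not tested.

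Germ cell markers varied across the same arrays. The summed intensity of the 18 on the array was 2505.3 and 1794.5 on the antibody arrays, against 2057.8 and 3213.2 on the control arrays, so the sum was lowest on the array where Id3 was highest and highest on the array where Id3 was lowest. Antibody replicate 1 was above control replicate 1 for both. Of the 18 markers 11 were highest on control replicate 2 and 3 on antibody replicate 2. All of these 3, Adam2, Tnp1 and Tnp2, had their lowest value on control replicate 2, as Id3 did, though Tnp2 was below the filter. Of the 15 tested, 6 were higher and 9 lower after the antibody, none was called, and the median was −0.27. The 6 tested macrophage markers had a median of 0.20, with 4 higher, 2 lower and none called, and their sum over 8 genes was 405.5 and 481.9 on the antibody arrays, against 400.2 and 359.5 on the control arrays. The part of these lists in the members' values was not tested. Among Sertoli cell markers Clu lay between 6439.6 and 7459.2, and among Leydig cell markers Cyp17a1 lay between 1361 and 1730.4. These levels were not used to settle the organ, on which the labels differ. Of 11 Sertoli markers 7 were higher and 4 lower with 1 called, Testin, at 1.56 ± 0.18 (limma adjusted p = 0.0152). The groups did not overlap for 3 of the higher and 3 of the lower markers, beside 21.9% and 15.5% of all tested probe sets. Inha gave −0.90 ± 0.19 (limma adjusted p = 0.122), with −0.49 on its other probe set, and Shbg gave −0.66 ± 0.16 (limma adjusted p = 0.217). Of 7 Leydig markers 2 were higher and 5 lower with 1 called, Star, at −1.49 ± 0.23 (limma adjusted p = 0.0418). Its other probe set, AB001349_at, gave −1.385 ± 0.25 and was not called (limma adjusted p = 0.0653). The antibody values of Star alone, 25.5 and 12.8 on the first and 19.9 and 7.5 on the other, averaged below the filter level. Both were thus tested through their control arrays. Fdx1 gave −0.93 ± 0.19 (limma adjusted p = 0.116), with −0.64 on its other probe set. Cyp11a1 went the other way, at 0.52 ± 0.21 (limma adjusted p = 0.58). The 7 tested smooth muscle markers had a median of −0.03 with none called, and of 5 erythroid markers 1 was called, Alas2, at −1.38 ± 0.21 (limma adjusted p = 0.0418). No probe set was called with quantile normalization, no filter, no moderation or without either control array, where the smallest adjusted p lay between 0.0615 and 0.366, so these 3 calls are lost there. The log2 ratio of 3′ to 5′ beta-actin signal, a sign of RNA integrity, was 1.21 and 1.10 on the antibody arrays, against 1.15 and 0.87 on the control arrays. For GAPDH the same ratio was −0.07 and −0.08 on the antibody arrays, against 0.06 and −0.16 on the control arrays.

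The wider pathway was read from 6 lists of genes that are not members, with 1 probe set per gene, the brightest. Over these lists 88 genes were tested, 52 were higher and 36 lower after the antibody, and none (0) passed limma's adjusted threshold. Over all tested probe sets 55.3% were higher and the median log2 difference was 0.03. No test was made over any list, and the genes of the lists were chosen with earlier results known.

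Among HLH partners and other binding partners of Id proteins, 7 genes were tested, 5 higher and 2 lower, with a median of 0.16. With 1 array left out the median lay between 0.02 (without control replicate 2) and 0.23 (without control replicate 1). Tcf3, which encodes the E proteins E12 and E47, had 214.7 and 214.6 on the antibody arrays, against 198.8 and 176.8 on the control arrays (0.18 ± 0.17, adjusted p = 0.851, with 0.10 without control replicate 2), while its other tested probe set gave −0.03. Rbl2, a relative of the retinoblastoma protein, gave 0.39 ± 0.17 (adjusted p = 0.612), and Ets1, an ETS factor that Id2 can bind, gave 0.31 ± 0.18 (adjusted p = 0.714). The third E protein gene, Tcf4, gave 0.09 ± 0.19, so the lower values of Tcf12 were not matched in sign by Tcf4 or by the brightest probe set of Tcf3.

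Of 17 other basic HLH and HLH-zipper factors, 11 were higher and 6 lower, with a median of 0.12. The smallest p-values belonged to Mycn, a Myc family activator, at −0.42 ± 0.17, to Mxd4, a partner of Max that represses Myc targets, at −0.43 ± 0.18, and to the coactivator Ncoa1 at −0.58 ± 0.25, with adjusted p from 0.58 to 0.605. Ncoa1 gave −0.33 without antibody replicate 2. It had 28.7 and 15.7 on the antibody arrays, against 47.6 and 33.7 on the control arrays. Its antibody values alone averaged below the filter level, so it was tested through its control arrays. Leaving out antibody replicate 2 gave a list median of −0.01, and leaving out antibody replicate 1 gave 0.19.

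In the Hes and Notch pathway 18 genes were tested, 10 higher and 8 lower, with a median of 0.09. Leaving out control replicate 2 gave a median of −0.07, and leaving out antibody replicate 2 gave 0.15. Dll1, a Notch ligand, had 79.5 and 48.5 on the antibody arrays, against 110.1 and 92.5 on the control arrays (−0.58 ± 0.22, adjusted p = 0.58). Its difference was −0.29 when antibody replicate 2 was left out and −0.86 when antibody replicate 1 was. Dll3, a relative that inhibits Notch, gave 0.44 ± 0.17 (adjusted p = 0.58), while a second probe set, too dim to be tested, gave −0.46. Tle5, a short Groucho-family protein that interferes with corepression, gave 0.62 ± 0.19 (adjusted p = 0.437), while the remaining 3 gave 0.21, −0.08 and −0.21. The receptor Notch1 and the DNA-binding effector Rbpj were close to even, at 0.05 ± 0.18 and −0.01 ± 0.20.

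In the BMP, TGF-beta and Smad pathway 21 genes were tested, 11 higher and 10 lower, with a median of 0.01. Leaving out antibody replicate 2 gave a median of 0.09, and leaving out antibody replicate 1 gave −0.03. Smad9, a BMP-regulated Smad also called Smad8, had 9.9 and 24.0 on the antibody arrays, against 52.9 and 35.1 on the control arrays (−0.88 ± 0.27, adjusted p = 0.437). It gave −0.57 without antibody replicate 1 and −1.20 without antibody replicate 2. Smad3, which transmits TGF-beta and activin signals, had 21.3 and 12.5 on the antibody arrays, against 39.1 and 42.2 on the control arrays (−0.80 ± 0.23, adjusted p = 0.353). It gave −0.99 without antibody replicate 1 and −0.60 without antibody replicate 2. The antibody values of Smad9 and Smad3 alone averaged below the filter level, so both genes were tested through their control arrays. The BMP receptor Bmpr1a gave −0.41 ± 0.22 (adjusted p = 0.693), with −0.18 without antibody replicate 1 and −0.64 without antibody replicate 2. Smad1, the other BMP-regulated Smad tested, gave 0.01 ± 0.21. The ligands Bmp2 and Bmp4 were too dim to be tested.

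Of 10 cell cycle genes, 4 were higher and 6 lower, with a median of −0.09, or 0.00 without antibody replicate 1 and −0.17 without antibody replicate 2. The groups did not overlap for 3 of the higher and 4 of the lower genes, beside 21.9% and 15.5% of all tested probe sets. Among the lower ones, Cdkn2b had antibody values of 20.5 and 23.7, which averaged below the filter level, so it was tested through its control arrays. Cdkn1a, the p21 inhibitor of cyclin-dependent kinases that E proteins activate and Id1 opposes, had 22.4 and 25.5 on the antibody arrays, against 55.3 and 78.5 on the control arrays. The groups did not overlap, with a log2 difference of −1.04 ± 0.21 (adjusted p = 0.122). On L41275cds_s_at, also a Cdkn1a probe set, the difference was −0.97 ± 0.22 (adjusted p = 0.15). Its antibody values alone, 12.1 and 16.2, averaged below the filter level, so it was tested through its control arrays. U24174_at, the brighter one, gave −0.98 without antibody replicate 1 and −1.10 without antibody replicate 2. It gave −1.24 without control replicate 1 and −0.84 without control replicate 2. Ccnd2, a G1 cyclin, gave −0.64 ± 0.18 (adjusted p = 0.305) and −0.46 ± 0.18 (adjusted p = 0.58) on its probe sets. Ccne1, a cyclin of the G1 to S step, gave 0.23 ± 0.18 on D14015_g_at (0.10 without antibody replicate 2) and 0.00 on D14015_at.

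Of 15 immediate early genes, short-lived transcripts that signals induce quickly, 11 were higher and 4 lower, with a median of 0.28. The groups did not overlap for 7 of the higher and 2 of the lower genes, beside 21.9% and 15.5% of all tested probe sets. Of the 15, 4 had an unadjusted limma p under 0.05, beside 8.11%, and Nr4a1 among these was lower. Nr4a3, counted among these and among the higher genes without overlap, had 25.1 and 13 on the control arrays. These control values averaged below the filter level, so Nr4a3 was tested through its antibody arrays. The list median was 0.10 without antibody replicate 1 and 0.34 without control replicate 1. Jun had 208.4 and 258.7 on the antibody arrays, against 158.1 and 138.1 on the control arrays (0.60 ± 0.18, adjusted p = 0.437), and its other probe sets gave 0.53, 0.48 and 0.24. Egr1 gave 0.43 ± 0.18 (adjusted p = 0.582), with 0.38, 0.23 and −0.08 on its other probe sets. Nr4a1 gave −0.87 ± 0.35 (adjusted p = 0.58) on U17254_g_at and 0.12 on U17254_at. On U17254_g_at the difference was −0.26 when antibody replicate 2 was left out and −1.49 when antibody replicate 1 was.

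**Figure D4:**
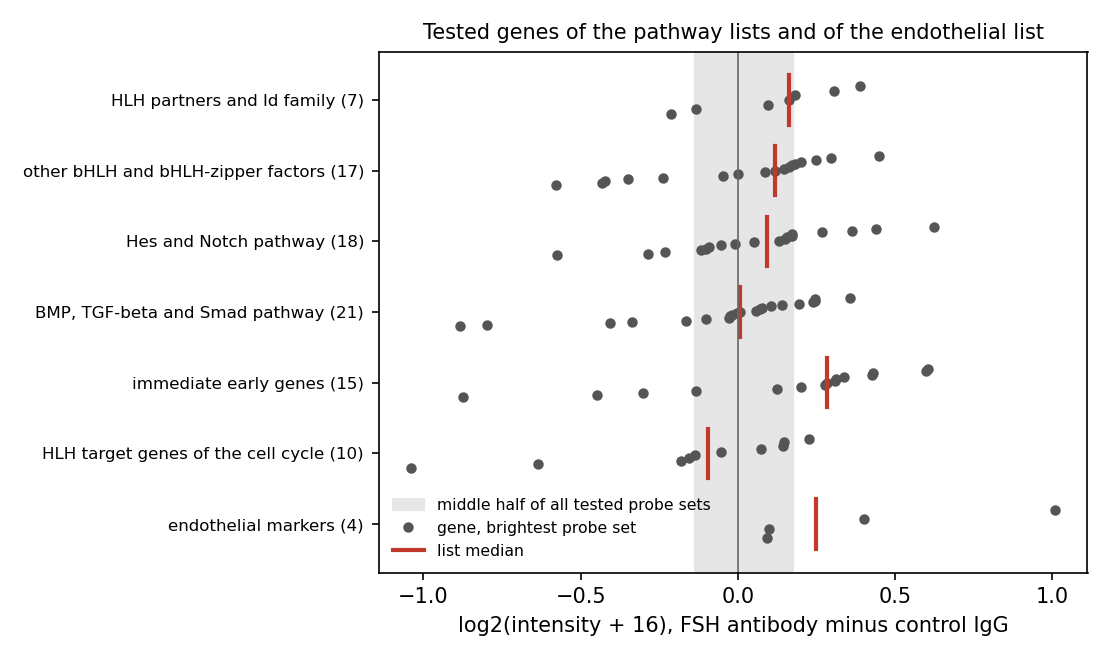
Log2 difference, FSH antibody minus control IgG (horizontal axis), of each tested gene on its brightest probe set, by list, with the number of tested genes in brackets and a red line at the list median. The grey band is the middle 50% of all tested probe sets, and the Cdkn1a point lies at −1.04 at the left end of the cell cycle row.

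Likeness of pattern was measured as the Euclidean distance between log2 values over the 4 arrays, each probe set centred on its own mean, over 4340 tested single-symbol probe sets of other genes. The distance is not scaled, so a probe set with large deviations has few neighbours at any fixed distance. For Id3, which had the largest deviations, the nearest were Slit3 at 0.37 and Nr4a3 at 0.38, and none (0) lay within 0.25. For Id1 the nearest were Tpm4 and the Hes family gene Hes3, both at 0.04, and 324 lay within 0.25. Top2a (0.03) and Tsc22d1 (0.05) were nearest to Id2, Slc4a1 (0.05) and Sod2 (0.07) to Hes1, and Rab28 (0.02) and Sncb (0.03) to Tcf12. With 356, 214 and 545 probe sets within 0.25 of Id2, Hes1 and Tcf12, the named genes are the nearest of many.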

How the data were processed

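The deposited values are 1 linear intensity per probe set and array for 4 Affymetrix arrays, with 59 control probe sets among 8799. Neither the software nor the background step nor the scaling target is given in the sources used here. The members, gene lists and tests were chosen with earlier results of these data known. Beside all member probe sets, the naming rule took the called genes and the 3 genes with the smallest p of each list, and the genes nearest in pattern. It was not followed in full for the germ cell, macrophage, smooth muscle and erythroid markers, where some genes with the smallest p are not named. Genes named outside the rule (Tcf4, Notch1, Rbpj, Smad1, Bmp2, Bmp4, Cdkn2b, Kdr, Vwf, Pecam1, Icam2, Tnp1, Tnp2, Clu and Cyp17a1) were chosen after their values were seen.

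Symbols came from the platform annotation and were updated through Entrez identifiers with RefSeq (GRCr8) for 6994 of 7018 single-symbol probe sets. Values were analysed as log2(intensity + 16), and probe sets with a mean at or above the 40th percentile were tested two-sided in limma 3.58.1 (lmFit, then eBayes with the trend option) under R 4.3.3, adjusting p-values by Benjamini-Hochberg. The fit was tested on simulated data. Alternatives were quantile normalization, median centring, constants of 1 and 64, no filter or one at the 60th percentile, no trend, no moderation, leaving out each array, a replicate block and averaging the probe sets of each gene. Signal over background cannot be given, and the number of arrays limits the precision. Promoter windows came from RefSeq for all 5 members.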

Additional observations from a re-analysis of the deposited data

How the results depend on the processing

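Of 13 alternatives 8 could change a member's difference. Over these 8, both probe sets of Id1, Id3 and Tcf12 and D13417_g_at of Hes1 kept their direction, Id2 kept it in 7 and D13417_at of Hes1 in 6. Member probe sets called ranged from 0 to 1 when 1 array was left out, and the 1 was rc_AI171268_at of Id3 without antibody replicate 1. For L09656_at of Tcf12, whose replicates lay close together, the difference was −0.33 with quantile normalization, −0.35 with a constant of 1 and −0.16 with a constant of 64, and the mean of both Tcf12 probe sets gave −0.37. Against 14 probe sets called over all, limma called 4 with median centring and 0 with quantile normalization (420 at an unadjusted p under 0.05), with no filter (702) or with no moderation (352). Leaving out 1 array gave 0 to 153 calls, with 0 without either control array (370 with control replicate 1 left out and 270 with control replicate 2 left out at an unadjusted p under 0.05), 153 without antibody replicate 1 and 94 without antibody replicate 2. Then the lone array is assumed to vary like the other group. With the replicate number as a block 39 were called, no member among them. The labels give both groups numbers 1 and 2, and deviations of same-numbered arrays correlated at 0.00386 over probe sets. The numbers were not treated as pairs in the main fit. With 2 arrays per group this correlation cannot exclude a batch shared by same-numbered arrays. Genes of the pathway lists called ranged from 0 to 4: Cdkn1a, Dll1, Nr4a1 and Smad3 without antibody replicate 1, and Cdkn1a and Smad9 (2) without antibody replicate 2. The cause of these changes was not tested.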
